A study of Homo sapiens with 3 samples.

Results

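Gene expression under the sorafenib probe was compared with gene expression under sorafenib itself in PLC-PRF-5 cells, with 1 Illumina beadchip for each compound. A gene was taken into the comparison when at least 1 of its array probes (the oligonucleotides printed on the chip) had a detection p-value under 0.01 on both arrays, and 9042 of the 20046 genes named on the array met this limit (45.1%). The cells are a long-established line from a human hepatoma. The labels give a treatment of 24 h with DMSO, with 10 μM sorafenib or with 10 μM sorafenib probe, but their protocol text has 50 μM for both compounds. Under either reading the compounds were compared at 1 matched dose and time, and the third array, of cells that received the solvent DMSO, is given beside them as a common reference. Each group holds 1 array, so there was no spread between cultures to test against. No p-value, standard deviation between replicates or interval is given for any difference, and each is described by its size.

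Sorafenib is an oral inhibitor of several kinases, among them the RAF kinases and the receptors of VEGF and PDGF, and is used against hepatocellular carcinoma. By the synthesis scheme of the study, the chlorine on the outer phenyl ring of sorafenib is replaced in the sorafenib probe by an ether-linked chain. The chain carries a diazirine, a photoaffinity group that forms covalent bonds with neighbouring molecules after ultraviolet light, and ends in a terminal alkyne, the handle to which a fluorescent azide is attached by click chemistry. The urea and the pyridine carboxamide are the same in both compounds. As background, terminal alkynes are known as inactivators of some cytochrome P450 enzymes, and reactive groups in general can draw on glutathione and on the NRF2, chaperone and DNA damage responses. The gene lists described here cover drug metabolism, oxidative and protein stress, DNA repair and the kinase pathway of the drug, and also lipid and energy metabolism, the ribosome, the cell cycle, inflammation, liver identity and the cytoskeleton. The labels mention no ultraviolet exposure of the cells used for the arrays.

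The 3 arrays were of like quality. Between 15268 and 15541 of 47323 array probes were above background at the limit of 0.01 (32.3% to 32.8%), and the mean intensity before normalization was 159 with sorafenib, 164 with the sorafenib probe and 183 with DMSO. Of the 9042 genes, 8749 were also above background with DMSO. A further 497 genes were detected with sorafenib alone, 510 with the sorafenib probe alone and 18 by different array probes on each array, and 9979 genes were detected with neither compound. These were not compared. At the edge of the limit, 209 array probes with a larger detection p-value from 0.008 up to 0.01 had median normalized intensities of 35.4 (sorafenib) and 39.1 (sorafenib probe), and 22 array probes just outside, up to 0.012, had 34.1 and 39.1. Of 8 hepatocyte markers only ALB was above background on both compound arrays, at 38.7 with sorafenib and 49.6 with the sorafenib probe, close to the lowest detected values of 34.2 and 34.0, whereas APOA1, APOB, TTR, TF, SERPINA1, FGB and AFP were not. All of the 4 bile duct markers KRT19, KRT7, SOX9 and EPCAM were detected, and their summed intensity was 2900 under sorafenib and 3380 under the sorafenib probe. Most of this sum was KRT7 (2579 and 3084), so it does not describe the markers as a group. SOX9 was lower with the sorafenib probe (56.8 and 51.2). None of 4 endothelial markers was detected on both compound arrays, 1 of 6 fibroblast and stellate markers was (ACTA2), and so were 2 of 5 leukocyte markers (CD14 and CD68).

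The array of the sorafenib probe lay close to that of sorafenib. Over the 9042 genes the median log2 difference, sorafenib probe minus sorafenib, was -0.002, with 4469 genes higher and 4553 lower, and the middle 95% of the genes lay between -0.40 and 0.40 (0.756-fold to 1.32-fold). The median size of a difference was 1.08-fold, and 90.4% of the genes lay within a log2 difference of 0.32 in size, the smallest limit used here (genes at 0.32 after rounding may lie on either side of it). With the sorafenib probe 446 genes were higher by at least this limit (4.93% of the genes compared) and 423 were lower by it (4.68%). At 1.5-fold the counts were 55 higher (0.608%) and 45 lower (0.498%), and at 2-fold 1 gene was higher (0.0111%) and 2 were lower (0.0221%). The counts in the 2 directions were near each other at every fold. Quantile normalization gives the arrays the same distribution, which favours this balance and a median near 0. At the limit of 0.32 the counts were 483 higher and 393 lower under median scaling. Without normalization between arrays they were 533 and 364. Across genes, which are not independent replicates, the log2 intensities of the arrays correlated with r = 0.9938 (9042 genes, with the range from dim to bright genes shared by both arrays).

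The size of the differences went with brightness. The genes were put into 3 equal groups by mean intensity. In the dim group (34.2 to 99.81) the middle 95% lay between -0.52 and 0.51, in the middle group (up to 324.5) between -0.36 and 0.35, and in the bright group (325 to 12420) between -0.26 and 0.27. Past 1.5-fold were 49 higher and 41 lower genes of the dim group, 4 and 4 of the middle group, and 2 and 0 of the bright group. The limit of 0.32 was passed by 27 higher and 29 lower genes among 3014 bright ones, against 307 and 284 among 3014 dim ones. The DMSO array did not lie on 1 side of these differences. Of the 55 genes that were 1.5-fold higher with the sorafenib probe, the DMSO value was nearer to sorafenib in 28 and nearer to the sorafenib probe in 27, and of the 45 lower ones it was nearer to sorafenib in 20 and to the sorafenib probe in 25. Over all genes 49.6% were nearer to sorafenib.

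**Figure D1:**
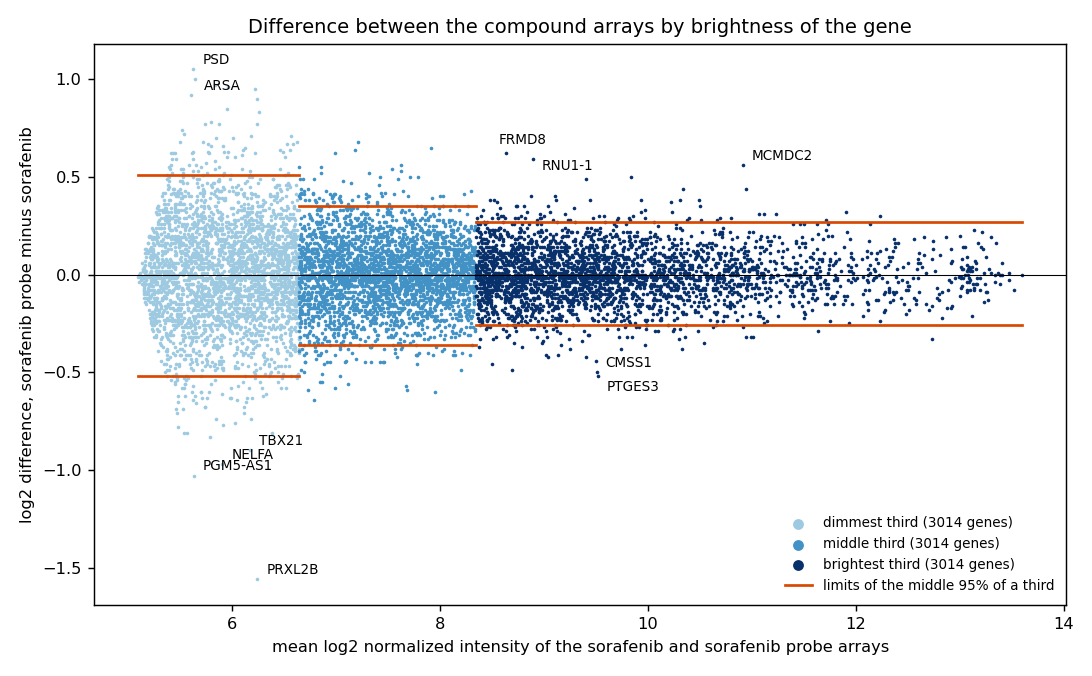
Each point is 1 of the 9042 genes, with the mean log2 normalized intensity of the compound arrays on the horizontal axis and the log2 difference, sorafenib probe minus sorafenib, on the vertical axis. The orange lines mark the middle 95% of each group of genes, which narrows from -0.52 to 0.51 in the dim group to -0.26 to 0.27 in the brightest.

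The genes that differed most were all dim and each was measured by 1 array probe. The highest was PSD, an exchange factor for the small GTPase ARF6, whose normalized intensity was 56.8 with DMSO, 34.4 under sorafenib and 71.0 under the sorafenib probe, 2.07-fold between the compounds (log2 difference 1.05). The value with sorafenib was next to the lowest detected value of that array (34.2). The lowest was PRXL2B, a thioredoxin-fold prostaglandin F synthase, with 93.5 with DMSO, 130 under sorafenib and 43.9 under the sorafenib probe (log2 difference -1.56). DMSO thus lay between the compounds for both genes. ARSA, the lysosomal arylsulfatase A, had 63.1 with DMSO, 35.2 under sorafenib and 70.4 under the sorafenib probe (just under 2-fold). OS9, a lectin that selects misfolded glycoproteins in the endoplasmic reticulum for degradation, had 92.3, 44.6 and 87.0 in the same order (0.96). For ARSA and OS9 the sorafenib array was the low one and the other arrays lay near each other. The other genes of the 10 highest were MTURN, SAMD1, MIEN1, RNF215, SMG1P1, GABRE and TCAM1P, with log2 differences from 0.97 down to 0.78, and the DMSO value was nearer to sorafenib for MTURN, SAMD1, RNF215, GABRE and TCAM1P. SMG1P1 and TCAM1P are pseudogenes, and the array may not separate SMG1P1 from its parent gene.

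Among the 10 lowest genes the sorafenib array was often the one that stood apart. NELFA, a subunit of the complex that pauses RNA polymerase II, had 39.0 with DMSO, 83.9 under sorafenib and 42.8 under the sorafenib probe (log2 difference -0.97). TBX21, the T-bet transcription factor of T helper cells, had 45.7, 98.2 and 52.7 in the same order (-0.90), and MOSPD2, a tether of the endoplasmic reticulum, had 43.2, 73.7 and 41.5 (-0.83). In these 3 genes sorafenib was high and the other arrays were close to each other. The antisense RNA PGM5-AS1 had 49.8, 70.8 and 34.6 (-1.03), and its value with the sorafenib probe was next to the lowest detected value there (34.0). ERGIC2, INSM1, MIR125B2, ZNF485 and ECSIT had log2 differences of -0.81, -0.81, -0.81, -0.78 and -0.77. ZNF485 was not above background with DMSO.

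Bright genes gave smaller differences. In the bright group the highest was FRMD8, a cofactor that holds the sheddase iRhom complex at the cell surface, with 399 with DMSO, 320 under sorafenib and 492 under the sorafenib probe (log2 difference 0.62, 1.53-fold). RNU1-1, a gene of the U1 spliceosomal RNA, had 411, 387 and 581 in the same order (0.59), and MCMDC2, a relative of the MCM helicases, had 1925, 1593 and 2343 (0.56). Of these genes FRMD8 and RNU1-1 were the 2 bright genes past 1.5-fold. PSMD8, a lid subunit of the proteasome, had 569, 770 and 1091 (0.50) and was higher than DMSO with both compounds. RPL7 (864, 573 and 801, 0.49) and RPS28 (1677, 1262 and 1645, 0.38), which code for ribosomal proteins, and OCIAD1, an endosomal and mitochondrial protein (2757, 1683 and 2285, 0.44), had DMSO values above both compounds. NPIPB3, VAMP3 and SLC39A1 made up the 10 highest, with 0.44, 0.40 and 0.40. RPL7, RPS28, RNU1-1 and NPIPB3 have near-identical copies or pseudogenes that the array may not separate.

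The lowest bright gene was PTGES3, the p23 co-chaperone of HSP90, with 977 with DMSO, 879 under sorafenib and 613 under the sorafenib probe (log2 difference -0.52, 1.43-fold). CMSS1 had 575, 862 and 611 (-0.50) and ST3GAL5, the GM3 ganglioside synthase, had 290, 491 and 350 (-0.49) by their brightest array probes, but 0.05 and 0.02 by their second ones. RBM25, a splicing factor, had 493, 426 and 309 (-0.46), and LACTB2, a mitochondrial endoribonuclease, had 887, 846 and 622 (-0.44). For PTGES3, RBM25 and LACTB2 the sorafenib probe gave the lowest of the 3 values and DMSO the highest. SLC38A2, a glutamine transporter (589, 611 and 456, -0.42), DCTN3, a dynactin subunit (617, 780 and 583, -0.42), ENOPH1, an enzyme of methionine salvage (579, 649 and 487, -0.41), NUAK1, a kinase of the AMPK family (692, 595 and 448, -0.41), and PGAM4 (1450, 1465 and 1123, -0.38) followed. The second array probe gave -0.16 for NUAK1 and 0.04 for PGAM4, a retrogene whose transcript closely matches that of PGAM1.

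**Figure D2:**
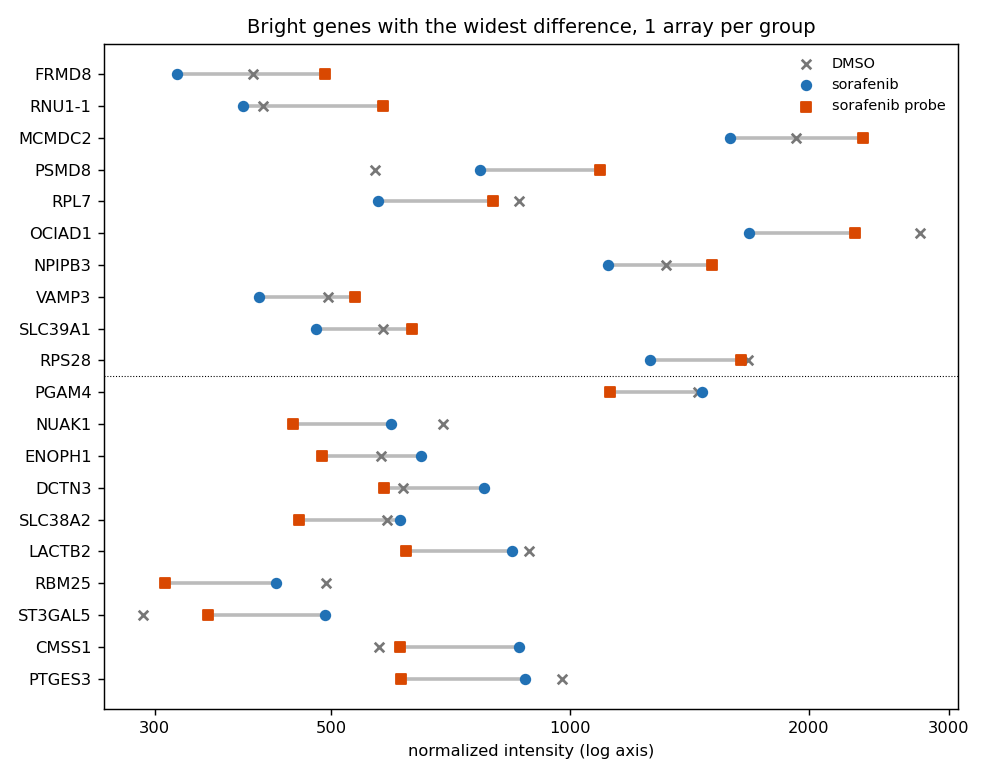
Normalized intensity (log axis) on the DMSO, sorafenib and sorafenib probe arrays, 1 array per group, for the 10 highest (above the dotted line) and 10 lowest genes of the bright group by the difference between the compounds. The widest pair is FRMD8, with 320 with sorafenib and 492 with the sorafenib probe, and DMSO lies between the compounds in some genes and outside them in others.

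Separate array probes of 1 gene agreed little between the compounds. At least 2 array probes were detected on both arrays for 2071 of the 9042 genes. Both array probes of a gene were read from the same culture on the same array. For 663 of the 2071 genes the annotation gives them different transcript accessions, so they may read different isoforms. Across these genes the log2 differences by the brightest and the second array probe correlated with r = 0.087 (Spearman rho = 0.094), and 1109 genes (53.5%) differed the same way by both. In 3 groups by the brightness of the second array probe, r was 0.037, 0.161 and 0.102 from dimmest to brightest (690, 690 and 691 genes), and the share that differed the same way was 50.3%, 54.3% and 56.0%. The bright genes thus agreed in direction slightly more often than the dim ones. The difference between the 2 array probes of a gene had a median of 0.22 (log2) in the dim group, 0.17 in the middle and 0.12 in the brightest, and 90.0% of the brightest pairs lay within 0.32 of each other (log2). Averaging both array probes lowered the spread of the differences over genes to 0.144 (SD over genes), from 0.171 by the brightest and 0.218 by the second.

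Of the 2071 genes, 127 passed 0.32 by their brightest array probe, beside 4.93% higher and 4.68% lower of all genes compared. By both array probes 11 passed it the same way, 5 higher and 6 lower, and 6 in opposite directions. A further 341 passed it by 1 array probe only. Whether unrelated array probes would give as many as 11 was not tested. None of the 11 or the 6 was among the 691 genes with the brightest second array probes, where 37 passed by 1 array probe only. The array probes had different transcript accessions in 3 of the 11 genes (ANGPTL4, TSC22D3 and ZNF655) and in 2 of the 6 (MXRA7 and NUPR1). TPM4, a tropomyosin of the actin cytoskeleton, had the widest shared difference, with 318 with DMSO, 193 under sorafenib and 303 under the sorafenib probe by its brightest array probe (log2 difference 0.65) and 98.1, 84.0 and 118 by its second (0.49). The sorafenib array was the low one for both. NR2C2, the orphan nuclear receptor TR4, had 0.65 and 0.42 by its 2 array probes, TSC22D3, the glucocorticoid-induced leucine zipper GILZ, had 0.40 and 0.58, GPRIN2 had 0.40 and 0.36, and ANGPTL4, an inhibitor of lipoprotein lipase, had 0.35 and 0.44. ANGPTL4 was at 143 with DMSO, 194 under sorafenib and 247 under the sorafenib probe by the brightest, and at 50.5, 49.4 and 66.8 by the second.

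Of the 6 genes that were lower by both array probes, RGS10, a regulator of G protein signalling, was the brightest. It had 579 with DMSO, 681 under sorafenib and 542 under the sorafenib probe by its brightest array probe (log2 difference -0.33) and 140, 208 and 149 by its second (-0.48), so sorafenib gave the highest value by both. ANKRD10 had -0.45 and -0.65, PKIG, an inhibitor of protein kinase A, had -0.58 and -0.38, and IFT122, a protein of transport in cilia, had -0.36 and -0.57. ZNF655 had -0.46 and -0.36, and SLC50A1, a sugar transporter, had -0.34 and -0.60. The genes whose array probes passed 0.32 in opposite directions were MPC1, C11orf54, MXRA7, MARCHF5, RIOX2 and NUPR1. MPC1, a subunit of the mitochondrial pyruvate carrier, had -0.52 by its brightest array probe and 0.55 by its second. All 6, picked with their values known, were in the dim group by their second array probe. Among bright pairs the widest gaps were in OCIAD1 (0.44 and -0.24), MAP7D1 (-0.07 and 0.53), LMO4 (-0.26 and 0.29), RPL34 (0.34 and -0.21), TSPAN3 (0.29 and -0.26) and CMSS1 (-0.50 and 0.05).

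**Figure D3:**
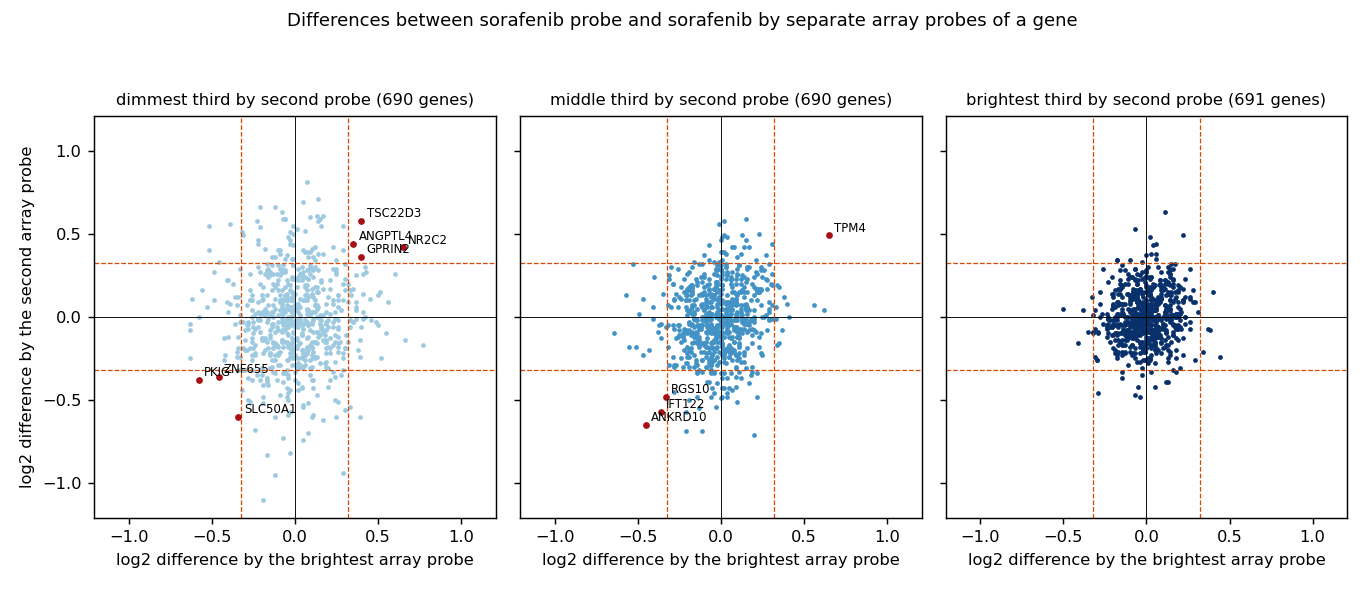
Log2 difference, sorafenib probe minus sorafenib, by the brightest (horizontal) and the second (vertical) array probe of each of 2071 genes, in 3 groups by brightness of the second array probe. Dashed lines mark a log2 difference of 0.32, and red points are the 11 genes past it the same way by both array probes, none of them among the 691 genes with the brightest second array probes.

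Of 46 gene lists, 45 had at least 5 of the genes compared, and for 37 of these the median log2 difference lay within 0.05 of 0, where the median of all genes was -0.002. In 39 of the 45 lists no member passed 1.5-fold. Of all genes compared only 0.608% were higher and 0.498% lower by 1.5-fold, so few members would pass it at that rate. Median scaling moved the median of all genes to 0.021 and leaving out normalization moved it to 0.03. The majority of higher or lower members turned in 14 and 16 of the 45 lists under these settings, so the splits given for lists near 0 depend on the scaling. Only 2 lists had a median of 0.1 or more in size, the cytosolic heat shock chaperones and the AP-1 and immediate early genes.

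**Figure D4:**
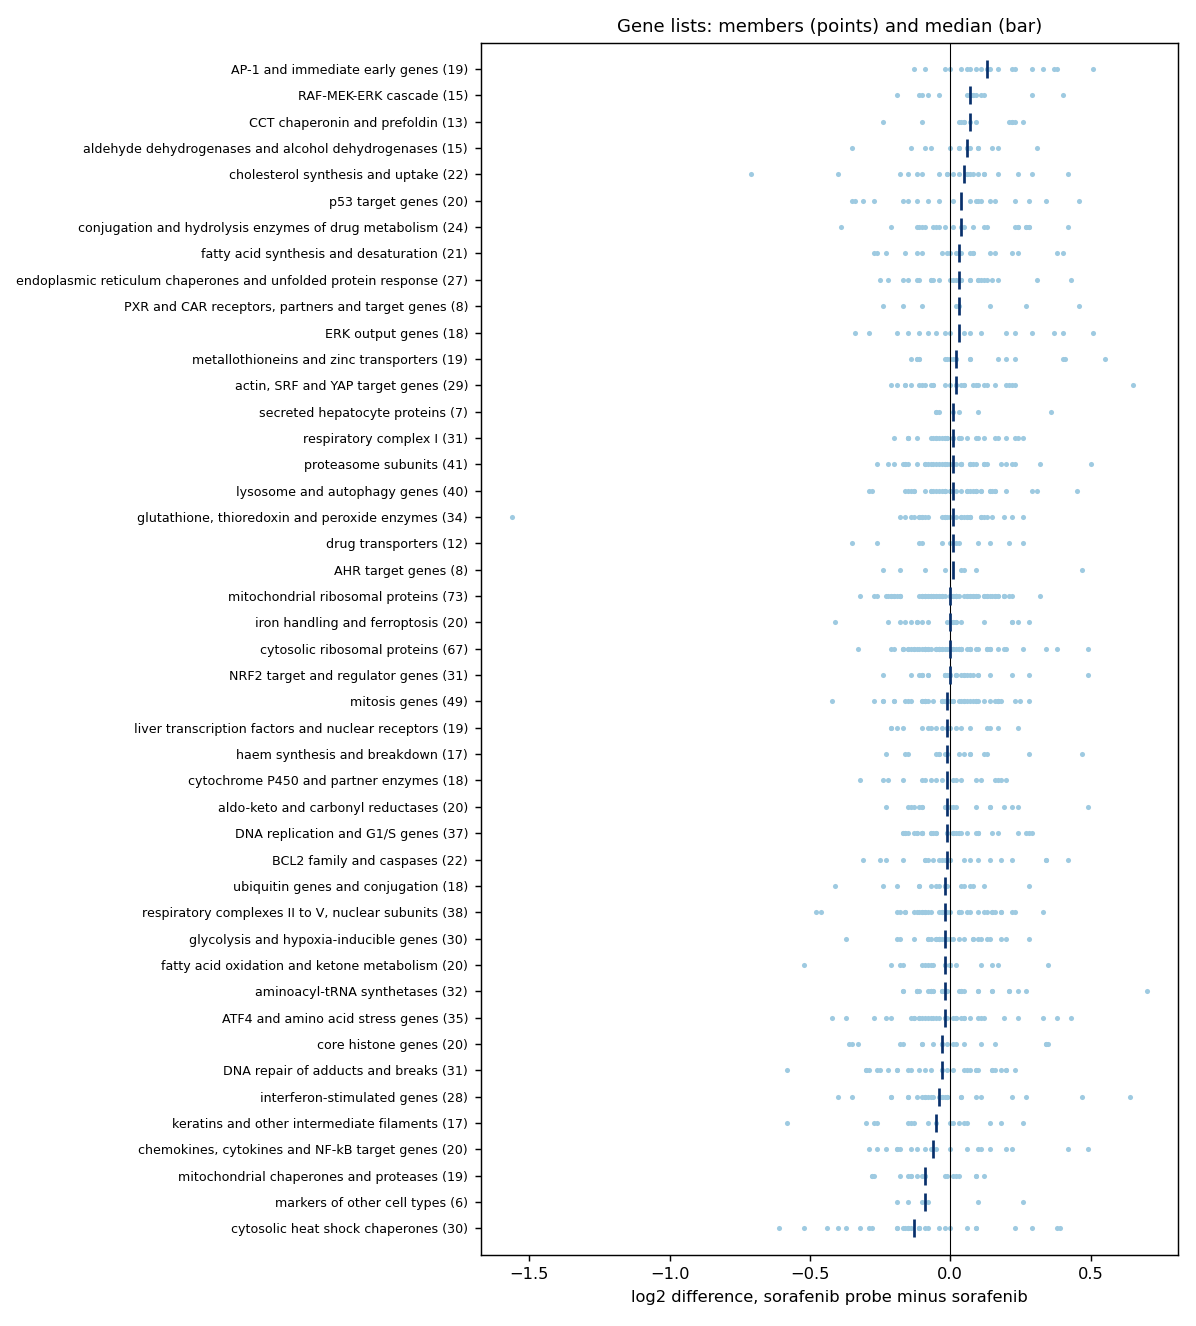
Log2 difference, sorafenib probe minus sorafenib, of the members (points) and the median (bar) of 45 gene lists, with the number of members in brackets. Most medians lie within 0.05 of 0, and the ends are the cytosolic heat shock chaperones (-0.13) and the AP-1 and immediate early genes (0.13).

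Chaperones of the cytosol fold kinases and other client proteins, and many kinases are known clients of HSP90. Of 30 such genes compared, 23 were lower and 7 higher with the sorafenib probe than with sorafenib, against 4553 lower and 4469 higher of all genes, with a median of -0.13. Past the limit of 0.32, 5 were lower and 2 higher, beside 4.68% and 4.93% of all genes. The count was 20 lower and 10 higher, with a median of -0.09, under median scaling, and 20 and 10 with -0.08 without normalization between arrays, where the median of all genes was 0.021 and 0.03. Single members differed in either direction. HSF1, the transcription factor of the heat shock response, was lowest, with 59.4 with DMSO, 74.0 under sorafenib and 48.6 under the sorafenib probe (log2 difference -0.61), in the dim group. PTGES3, given above, was next, and CHORDC1, a co-chaperone of HSP90, had 169 with DMSO, 158 under sorafenib and 117 under the sorafenib probe (-0.44). BAG2, a nucleotide exchange factor of HSC70, had 68.3, 75.3 and 57.2 (-0.40). In these 4 genes the sorafenib probe array gave the lowest of the 3 values.

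The core chaperones gave smaller values. They and the members that follow were picked with their values known. The log2 difference was -0.15 for HSP90AA1 and -0.08 for HSP90AB1, the inducible and constitutive HSP90, -0.02 for HSPA8, the constitutive HSC70, and -0.00 for the small heat shock protein gene HSPB1 (all 4 were in the bright group, from 1543 to 6873 under sorafenib). HSPA1A and HSPA1B, near-identical genes of the inducible HSP70 that the array may not separate, had -0.28 and -0.11. The higher members were led by HSPB8, a small heat shock protein gene at 34.2, 40.2 and 52.5 that was not above background with DMSO (0.39), and by STUB1, a ubiquitin ligase that works with HSP70 (277, 313 and 406, 0.38). Second array probes were detected for 7 members, and 5 of them were lower and 2 higher, with a median of -0.09. STUB1 had -0.08 and HSP90AA1 had 0.08 by the second array probe, opposite to the brightest, whereas HSPA2 had -0.29 and -0.46. Against the shared DMSO array the median of the list was -0.06 with sorafenib and -0.22 with the sorafenib probe.

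**Figure D5:**
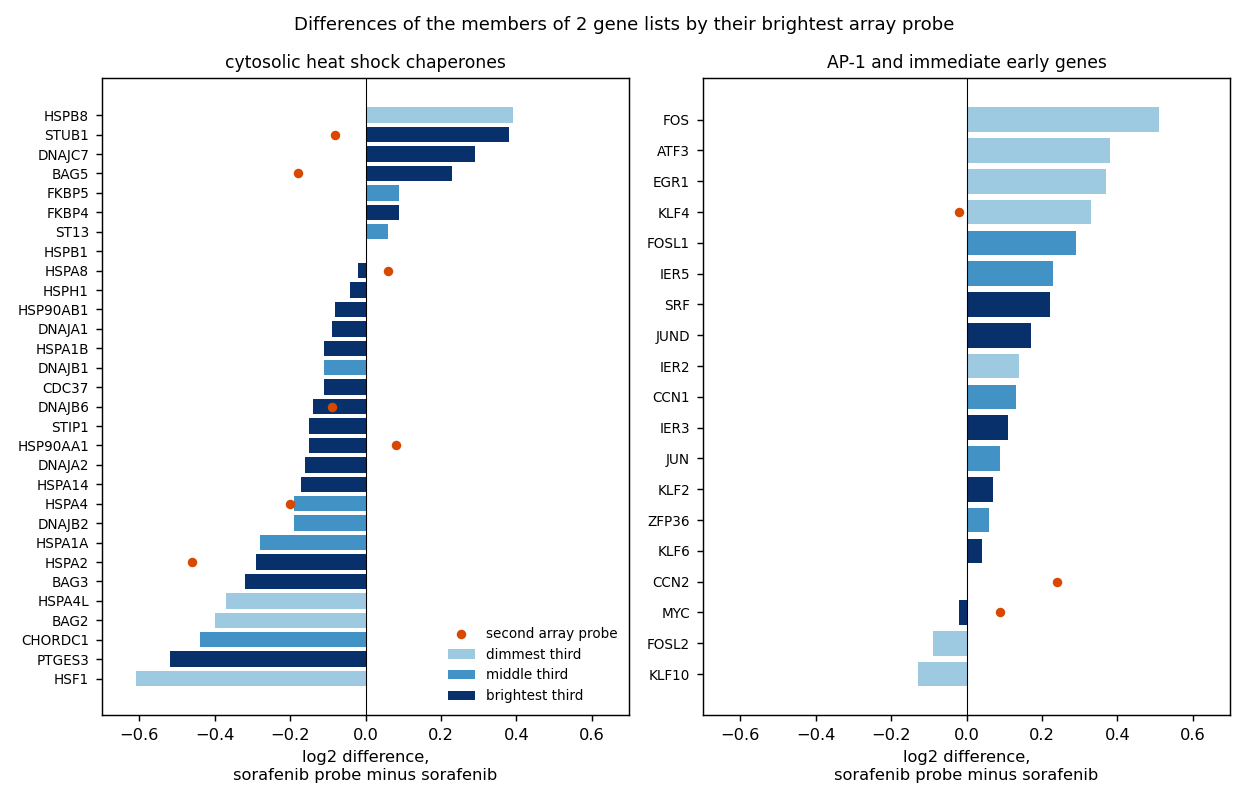
Log2 difference, sorafenib probe minus sorafenib, of each member of the cytosolic heat shock chaperones (30 genes) and of the AP-1 and immediate early genes (19 genes) by its brightest array probe (bars, shaded by group of brightness) and, where detected, its second one (orange points). Of the chaperones 23 are lower and 7 higher, of the early genes 15 are higher and 4 lower, and the orange points lie on either side of 0.

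The promoters of heat shock genes are known for the element bound by HSF1. The RefSeq promoter windows (GRCh38.p14, 300 bases, from 250 before to 50 after the start of the gene) were found for 25 of the 30 chaperone genes and searched on both strands for GAA, 2 bases of any kind, TTC, 2 bases of any kind and GAA. It was present in 4 of the 25 (16%), against 133 of 27305 promoters of all genes (0.487%). Among the genes compared that had a window, 26 of 7394 had it (0.352%). The 4 windows are shown because they belong to members that were all lower with the sorafenib probe by their brightest array probe, with bases of the element in capitals. CHORDC1 (-0.44) has 3 overlapping matches at chr11:90223000-90223299 on the minus strand, DNAJB6 (-0.14) has 1 at chr7:157336754-157337053 on the plus strand, DNAJA1 (-0.09) has 1 at chr9:33025023-33025322 on the plus strand, and HSPA8 (-0.02) has 2 at chr11:123062087-123062386 on the minus strand.
CHORDC1: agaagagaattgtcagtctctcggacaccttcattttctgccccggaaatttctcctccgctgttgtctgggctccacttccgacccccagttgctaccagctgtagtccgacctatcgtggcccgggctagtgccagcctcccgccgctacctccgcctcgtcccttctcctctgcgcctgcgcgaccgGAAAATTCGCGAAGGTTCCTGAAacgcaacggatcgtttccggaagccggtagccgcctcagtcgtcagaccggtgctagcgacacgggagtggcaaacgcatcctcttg
DNAJB6: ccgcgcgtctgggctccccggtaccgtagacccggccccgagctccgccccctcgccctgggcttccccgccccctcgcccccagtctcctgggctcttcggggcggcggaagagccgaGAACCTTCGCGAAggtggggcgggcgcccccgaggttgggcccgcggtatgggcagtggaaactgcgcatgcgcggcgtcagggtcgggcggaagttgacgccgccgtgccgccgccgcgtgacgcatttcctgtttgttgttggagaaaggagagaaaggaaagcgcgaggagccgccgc
DNAJA1: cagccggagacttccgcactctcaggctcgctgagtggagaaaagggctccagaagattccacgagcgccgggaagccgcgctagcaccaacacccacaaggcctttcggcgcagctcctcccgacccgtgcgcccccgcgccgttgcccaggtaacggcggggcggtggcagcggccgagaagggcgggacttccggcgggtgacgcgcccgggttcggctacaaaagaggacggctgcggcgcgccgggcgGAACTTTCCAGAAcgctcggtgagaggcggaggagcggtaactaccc
HSPA8: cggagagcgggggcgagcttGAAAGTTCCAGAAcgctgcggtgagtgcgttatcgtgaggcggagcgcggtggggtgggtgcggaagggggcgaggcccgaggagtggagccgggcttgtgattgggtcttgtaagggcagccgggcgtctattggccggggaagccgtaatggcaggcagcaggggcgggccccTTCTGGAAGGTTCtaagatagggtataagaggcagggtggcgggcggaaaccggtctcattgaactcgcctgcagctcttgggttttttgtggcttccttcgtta
Of the 21 members without a match in this window 16 were also lower and 4 higher. Their median was -0.15, against -0.12 over the 4 with a match. By its second array probe HSPA8 had 0.06 and DNAJB6 -0.09.

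Other folding machines were counted in the same way. Of 13 genes of the CCT chaperonin and prefoldin, which fold actin and tubulin, 11 were higher and 2 lower (median 0.07), none past 0.32. CCT7 was the lowest with 5223 with sorafenib and 4430 with the sorafenib probe (-0.24), and had -0.06 by its second array probe. Of 6 second array probes in this list 3 were higher and 3 lower. Mitochondrial chaperones and proteases had 13 of 19 members lower (median -0.09), and 10 of 19 were lower under median scaling and without normalization. The lowest were DNAJA3 (-0.28), HTRA2 (-0.28, but -0.07 by its second array probe) and CLPP (-0.27). Among 27 chaperones and unfolded protein response genes of the endoplasmic reticulum 16 were higher and 11 lower (0.03), with P4HB, the protein disulfide isomerase, at 1928 and 2386 with sorafenib and the sorafenib probe (0.31) and HSP90B1, the HSP90 of the endoplasmic reticulum, at 2412 and 2034 (-0.25). DDIT3, which codes for CHOP, had 50.4 and 67.9 (0.43). The 41 proteasome subunits split 21 to 20 (0.01), and PSMD8 was the 1 member past 0.32. Of 18 ubiquitin and conjugation genes 6 were higher and 12 lower (-0.02), with USP14, a deubiquitinase of the proteasome, at -0.41 by its brightest array probe and 0.09 by its second.

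The AP-1 and immediate early genes are switched on within minutes of growth factor or stress signals, several of them through ERK. With the sorafenib probe 15 of 19 were higher than with sorafenib and 4 lower, with a median of 0.13, and 4 were higher by at least 0.32 and none lower by it, beside 4.93% and 4.68% of all genes. With an offset of 50 none passed this limit, and with detection on all 3 arrays 2 of 17 did. Under median scaling and without normalization 17 were higher, with medians of 0.14 and 0.15. All 4 past 0.32 were in the dim group. FOS had 22.1 with DMSO, 44.0 under sorafenib and 62.8 under the sorafenib probe (log2 difference 0.51), and EGR1 had 24.4, 44.4 and 57.5 (0.37), and neither was above background with DMSO. ATF3, a stress-induced partner of JUN, had 85.1, 69.2 and 90.0 (0.38), with DMSO near the sorafenib probe. KLF4 had 0.33 by its brightest array probe and -0.02 by its second. Bright members differed little, with 0.17 for JUND (2148 with sorafenib and 2417 with the sorafenib probe), 0.11 for IER3 and -0.02 for MYC, all picked with their values known.

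The RAF-MEK-ERK cascade, the pathway that sorafenib was designed against, had 10 of 15 members higher and 5 lower (median 0.07). Of 7 second array probes in this list 3 were higher and 4 lower (median -0.09). RPS6KA1, the kinase RSK1, was the 1 member past 0.32 (65.9 and 87.1 with sorafenib and the sorafenib probe, 0.40). MKNK2 had 0.29 and GRB2 -0.19 by their brightest array probes, and -0.32 and 0.27 by their second ones. The genes that report ERK output split 9 to 9 (median 0.03, 18 genes). DUSP6, the phosphatase that switches ERK off, had 83.3 with DMSO, 65.0 under sorafenib and 86.1 under the sorafenib probe (0.40), whereas SPRY2, a feedback inhibitor of receptor signalling, had 203, 152 and 119 (-0.34). The values of DUSP6 and SPRY2 had opposite directions, but each came from 1 array probe and lay within the middle 95% of its group of brightness. Of the 11 genes that the study names as targets, 3 were compared. KRT8 had 2814 on both compound arrays (0.00), TTK had 239 and 236 (-0.02) and SIRT7 had 95.7 and 83.5 (-0.20). No array showed the receptor kinase genes KIT, FLT1, FLT3, KDR and PDGFRB above background, and CCDC22 was above it with DMSO and sorafenib but had a detection p-value of 0.0182 with the sorafenib probe.

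The cytochrome P450 enzymes oxidise drugs and steroids with the help of the reductase POR and cytochrome b5. Of 37 such genes on the array 18 were compared, 9 of them higher and 9 lower, with a median of -0.01. CYP4V2 was the 1 member past 0.32, with 45.9 with DMSO, 55.4 under sorafenib and 44.3 under the sorafenib probe (log2 difference -0.32). CYP3A5, a relative of the main enzyme for sorafenib, was dim at 41.5, 42.2 and 35.7 (-0.24), POR had 146, 191 and 170 (-0.17), PGRMC2 had -0.22 and CYB5R1 had 0.20. Haem synthesis and breakdown, which supplies and clears the P450 cofactor, split 8 to 9 (median -0.01, 17 genes), with HMOX2 at 48.2 and 66.6 (0.47), PPOX at 0.28 and UROS at -0.23. Targets of the aryl hydrocarbon receptor AHR split 4 to 4, with CYP1B1 at 706 and 754 (0.09) and EREG at 46.1 and 63.6 (0.47). Of 8 genes of the drug receptors PXR and CAR 5 were higher. Among these, CES2, a carboxylesterase, had 298 and 359 (0.27) and 0.37 by its second array probe, and GADD45B had 78.6 and 108 (0.46).

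Conjugation and transport split in much the same way. Of 24 conjugation and hydrolysis enzymes 14 were higher and 10 lower (median 0.04), with CES1 at 0.42, GSTM2 at -0.39, and EPHX1 and GSTK1 at 0.28. Of 12 drug transporters 6 were higher and 5 lower (0.01), and SLCO1B3, a hepatic uptake carrier, had 83.0 and 65.2 (-0.35). NRF2 is the transcription factor that is released when KEAP1 senses electrophiles. Its 31 target and regulator genes had 16 higher and 13 lower (median 0.00, median intensity 1170), and 23 higher and 8 lower under median scaling and without normalization (medians 0.06 and 0.07). AKR1C1 was the 1 member past 0.32 (70.8 and 99.6, 0.49), AKR1B10, among the brightest genes of the array, had 8774 and 10250 (0.22), and NFE2L2, which codes for NRF2 itself, had 456 and 388 (-0.24). Of 34 glutathione, thioredoxin and peroxide enzymes 18 were higher and 16 lower (0.01), and PRXL2B was the 1 past 0.32. Of 20 aldo-keto and carbonyl reductases 9 were higher and 10 lower (-0.01), and of 15 aldehyde and alcohol dehydrogenases 11 were higher and 4 lower (0.06), with ADH5 at 77.0 and 60.4 (-0.35). CAT, the catalase gene, had 0.22 by its brightest array probe and -0.48 by its second. Of 19 metallothioneins and zinc transporters 12 were higher and 7 lower (0.02). MT1H (0.55), SLC39A4 (0.41) and SLC39A1 (0.40) were past 0.32 and none was lower by it, beside 4.93% and 4.68% of all genes. With an offset of 50, 1 member passed this limit. The array may not separate MT1H from other metallothioneins.

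Genes of damage and death did not move together. The targets of p53 split 11 to 9 (median 0.04, 20 genes), with GADD45B at 0.46, TP53INP1 at -0.35, CCNG1 at 746 and 588 with sorafenib and the sorafenib probe (-0.34) and BAX at 0.34 by its brightest and -0.17 by its second array probe. Genes that repair adducts and breaks had 14 higher and 17 lower (-0.03), and CHEK2, a checkpoint kinase, was the 1 past 0.32 with -0.58, but 0.00 by its second array probe. The BCL2 family and caspases split 11 to 11 (-0.01), with CASP4 at 0.42. Of 40 lysosome and autophagy genes 20 were higher and 20 lower, and GABARAP had 51.6 and 70.3 (0.45). Iron handling and ferroptosis split 10 to 10 (0.00), with AIFM2, a suppressor of ferroptosis, at -0.41. Mitosis genes had 23 higher and 26 lower of 49 (-0.01) and DNA replication genes 18 and 19 of 37 (-0.01), none of the latter past 0.32.

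The ATF4 and amino acid stress genes had 15 higher and 20 lower of 35 (median -0.02). Their medians against the shared DMSO array were 0.52 with sorafenib and 0.47 with the sorafenib probe. Past 0.32 were 3 higher and 2 lower, beside 4.93% and 4.68% of all genes. Among them were DDIT3 (0.43), ATF3 (0.38), SLC38A2 (-0.42) and VEGFA (75.5 and 58.2, -0.37). With an offset of 50, 1 member was lower past this limit and none higher. AARS2, the mitochondrial alanyl-tRNA synthetase, had 45.1 and 73.3 (0.70), and the 32 aminoacyl-tRNA synthetases had a median of -0.02. Against the shared DMSO array the medians of the next lists were -0.18 with sorafenib and -0.14 with the sorafenib probe for cholesterol, -0.26 and -0.25 for fatty acid synthesis, and 0.12 and 0.07 for fatty acid oxidation. Cholesterol synthesis and uptake had 13 higher and 9 lower of 22 (0.05). MVD had 56.7 and 34.6 (-0.71), next to the lowest detected value, IDI1 had 115 and 86.8 (-0.40) and the sterol exporter gene ABCG1 had 34.8 and 46.6 (0.42). Fatty acid synthesis and desaturation had 13 higher and 8 lower (0.03), with ELOVL1 at 139 and 184 (0.40) and LPIN2 at 0.38. Fatty acid oxidation had 6 higher and 14 lower of 20 (-0.02), with ETFDH at -0.52 and ANGPTL4 at 0.35, and 11 higher and 9 lower both under median scaling and without normalization.

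The 67 cytosolic ribosomal protein genes, with a median intensity of 6790, had 31 higher and 36 lower (median -0.00), and RPL10A had 7617 with sorafenib and 6061 with the sorafenib probe by its brightest array probe (-0.33) but 0.12 by its second. The 73 mitochondrial ribosomal protein genes split 36 to 37. Of 20 core histone genes, whose close copies the array may not separate, 8 were higher and 12 lower (-0.03), with 3 past 0.32 in each direction, beside 4.93% and 4.68% of all genes, and none with an offset of 50. Respiratory complex I had 16 higher and 15 lower with none past 0.32, and the other complexes had 17 and 20 of 38. Of the latter, UQCR11 (-0.48), SDHD (-0.46) and SDHC (0.33) passed it, 1 higher and 2 lower, beside 4.93% and 4.68% of all genes. SDHC had -0.01 by its second array probe. With an offset of 50, 2 members were lower past the limit and none higher. Glycolysis and hypoxia-inducible genes had 12 higher and 18 lower of 30 (-0.02), which turned to 19 and 11 under median scaling and to 21 and 9 without normalization.

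Of 28 interferon-stimulated genes 20 were lower and 8 higher (median -0.04, median intensity 85.8). TRIM21 had 54.9 and 85.4 with sorafenib and the sorafenib probe (0.64), PARP14 had 0.47, ISG15 had 91.0 and 68.9 (-0.40) and HLA-B had -0.35, all in the dim group. Among 20 chemokine, cytokine and NF-kB target genes 8 were higher and 12 lower (-0.06), with CXCL2 at 84.7 and 119 (0.49) and CCL5 at 438 and 358 (-0.29), whose second array probe gave -0.05. Many genes of liver identity could not be compared. Of 48 secreted hepatocyte protein genes on the array only 7 were compared, with a median of 0.01 at a median intensity of 63.3. Of 36 liver transcription factors and nuclear receptors on the array 19 were compared (median -0.01), where CEBPG had 0.24 and CEBPB -0.21. Keratins and other intermediate filaments had 7 higher and 9 lower (-0.05), with KRT18 at 437 and 364 (-0.26) and -0.13 by its second array probe. Actin, SRF and YAP target genes had 16 higher and 13 lower (0.02), with TPM4 past 0.32. Of 6 markers of other cell types that were compared, 2 were higher and 4 lower (median -0.09). KRT7 had 2579 and 3084 (0.26), ACTA2 178 and 191 (0.10), CD14 198 and 173 (-0.19) and SOX9 56.8 and 51.2 (-0.15). The part of these markers in the other differences was not tested.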

How the data were processed

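One Illumina beadchip with 47323 array probes was run for each treatment. The authors deposited 2 intensity tables. In the one described as not normalized, 98.2% of the sorted values above the floor were equal on all 3 arrays, so it had been quantile normalized, and the other, used here, holds background-subtracted intensities. The deposited detection p-value compares each array probe with the negative controls of its array. Scanner software and background method: not given in the sources used here.

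Intensities were corrected by normexp, which took the background from detection p-values, and an added offset of 16 shrinks differences of dim genes. They were then quantile normalized over the 3 arrays and put on the log2 scale (limma 3.58.1, R 4.3.3, Python 3.11.15). Of the array probes, 30113 had 1 gene symbol in the platform annotation, 8 had several and 17202 were not listed, and 30074 were matched to the RefSeq gene table by Entrez number. The brightest array probe with a detection p-value under 0.01 on both compound arrays stood for its gene. Named genes followed a rule: the 10 highest and 10 lowest, the same in the bright group, genes past 0.32 (log2) the same way by 2 array probes, the 6 widest gaps between bright array probes, up to 4 genes of each list, and the named targets. Any other gene was picked with its values known. The comparison, its members and the 46 lists were chosen with earlier results of these data known. With 1 array for each treatment no test was possible, and this number limits the precision. The steps were tested on simulated data. Alternatives were the authors' table, an offset of 50, other scaling, other detection limits and the mean of the array probes. No array coordinates are given, since the build behind the array was not stated.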

Additional observations from a re-analysis of the deposited data

How the results depend on the processing

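Counts past the limits moved with the treatment of dim genes, and some smaller differences changed direction. CAT, for example, ranged from -0.13 to 0.25 (log2) over the settings. By the authors' quantile normalized values 735 genes were higher and 709 lower by at least 0.32 (log2), 169 and 170 passed 1.5-fold, 15 and 15 passed 2-fold, and 40 and 17 genes passed 0.32 by both array probes the same way and in opposite ways. With an offset of 50 these counts were 146 and 149, 6 and 4, 0 and 1, and 2 and 0. With no detection filter they were 1343 and 1296, 226 and 227, 11 and 11, and 80 and 77, and the correlation between the array probes of a gene was 0.02. With a detection limit of 0.05, 86 genes were 1.5-fold higher, 6 were 2-fold higher, and 18 and 14 passed by both array probes the same way and in opposite ways. Of 216 named genes 208 kept 1 direction in all 9 alternatives, as did all 31 named genes past 1.5-fold. The alternatives process the same arrays again, and the detection settings change only which array probes are compared. A kept direction was thus likely for wide differences and does not speak for a repeat culture. Of 405 list medians 385 stayed within 0.05 of their value. No paired analysis was possible because each treatment has 1 array.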

Other observations

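Array probes with no single gene listed were compared in the same way. Of those above background on both compound arrays, 2848 had a median normalized intensity of 128, against 177 for the genes. Their log2 differences, sorafenib probe minus sorafenib, passed 1.5-fold in 1.47% (17 higher and 25 lower), against 1.11% of the genes, and 2 were at least 2-fold higher and 6 lower (0.281%, against 0.0332% of the genes).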
